A study of Mus musculus with 12 samples.

Results

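The genes examined were Nr4a1, Nr4a2 and Nr4a3, which encode the NR4A orphan nuclear receptors, Egr1, Egr2 and Egr3, which encode zinc-finger transcription factors of the early growth response family, and Nab2, which encodes a corepressor that binds EGR proteins. They were taken by symbol, and all 7 of these genes, of 55536 annotated genes, were found in the gene count and FPKM tables and passed the filter on low counts. RNA was sequenced from OT-I CD8+ T cells, which carry a transgenic T cell receptor for the ovalbumin peptide SIINFEKL on a Rag-deficient background. In the Ag group (n = 5) OT-I cells were transferred into C57BL/6J mice that then received the peptide intraperitoneally with control rat IgG. In the Ag+Costim group (n = 5) the recipients received the peptide with agonist antibodies against the costimulatory receptors CD134 (OX40) and CD137 (41BB). Per the labels these cells were collected after 4 days, and the study's methods give a slightly shorter time. The Naive group (n = 2) held cells taken directly from OT-I mice that had no transfer, peptide or antibody, so that transfer and antigen exposure cannot be told apart in any comparison with Naive. The mice were adults of both sexes. The recipients kept their own lymphocytes, and the transferred cells were recovered from spleen and lymph nodes by sorting on CD8, CD45.1 and the transgenic receptor chains.

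NR4A and EGR genes are immediate-early genes of T cell receptor signalling. Calcium, calcineurin and MEF2 factors act on the Nr4a genes, and the Ras and ERK cascade acts on the Egr genes through serum response factor and its ELK partners. NR4A receptors are known for their part in tolerance and exhaustion, EGR2 and EGR3 for restraining T cell responses, and NAB2 for feeding back on EGR activity.

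Total counts per library ranged from 24006053, in Ag 4, to 49294934, with a median of 44033419. The summed level of 8 CD8 T cell markers was 11400 to 12200 CPM (counts scaled to library size) in Naive, 9900 to 14200 in Ag and 5800 to 7990 in Ag+Costim, and all 8 were detected in every group. The summed level of 8 B cell markers was 34.6 to 40.6 CPM in Naive, 132 to 188 in Ag and 44.5 to 94.5 in Ag+Costim, with 2 of the 8 at 0 in both Naive libraries. The summed level of 6 erythroid markers was 150 to 2070 CPM in Naive, 626 to 6380 in Ag and 14.5 to 223 in Ag+Costim, and was highest in Ag 4. The 11 myeloid and dendritic markers summed to 114 to 160 CPM in Naive, 261 to 383 in Ag and 221 to 413 in Ag+Costim, and 3 NK cell markers to 12.4 to 14.7, 7.07 to 17.2 and 1.22 to 3.79. The 3 markers of CD4 and regulatory T cells summed to 1.30 to 1.38 CPM in Naive, 3.97 to 5.98 in Ag and 3.41 to 8.35 in Ag+Costim. Because the RNA came from bulk populations, fewer cells of a type and less RNA per cell cannot be told apart.

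The 2 promoters that follow are shown because Nr4a1 and Egr2 belong to the 2 families, were both lower in Ag+Costim than in Ag, and moved in opposite directions from Naive to Ag. Both sequences are from RefSeq (GRCm38.p6) and end at the base before the transcription start. The Nr4a1 window is chr15:101266596-101266845, plus strand, and the Egr2 window is chr10:67537749-67537868, plus strand. Capitals mark a match to a motif searched on both strands.
Nr4a1: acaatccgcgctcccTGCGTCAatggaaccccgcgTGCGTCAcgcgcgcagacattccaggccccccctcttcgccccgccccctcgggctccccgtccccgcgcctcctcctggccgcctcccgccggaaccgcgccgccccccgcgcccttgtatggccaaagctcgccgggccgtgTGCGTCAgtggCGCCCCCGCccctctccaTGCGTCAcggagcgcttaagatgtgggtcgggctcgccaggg
Egr2: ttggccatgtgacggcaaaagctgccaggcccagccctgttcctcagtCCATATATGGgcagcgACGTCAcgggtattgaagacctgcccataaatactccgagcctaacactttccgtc

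The motifs searched were the cyclic AMP response element (CRE) TGACGTCA, its partial site ACGTCA, the CRE-like TGCGTCA, the NR4A site AAAGGTCA, the EGR sites GCGTGGGCG and GCGGGGGCG, the CArG box bound by serum response factor, and the MEF2 site. The Nr4a1 window held 4 copies of TGCGTCA, which begin at -235, -215, -71 and -42 from the start, and 1 EGR site on the minus strand from -60 to -52. In the Egr2 window a CArG box from -72 to -63 stood beside an ACGTCA from -56 to -51. All 250 bases before the Egr2 start were searched, of which the last 120 are shown, and the rest held no match. Of 32851 promoters in the RefSeq table, 1.75% held TGCGTCA, 3.06% an EGR site, 1.47% a CArG box and 6.47% ACGTCA in the 250 bases before the start. The full CRE, which holds the partial site, was in 1.55%, the NR4A site in 1.34% and the MEF2 site in 0.508%, and none of these 3 was found in either window. These matches are descriptions of the letters, and no binding was measured.

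Levels between genes were compared per length, as FPKM. In Naive cells Nab2 (17.8 ± 2.33 FPKM, SD, n = 2), Egr1 (15.9 ± 4.76) and Nr4a1 (11.9 ± 2.68) were the highest, and neighbours in that order overlapped. Egr2 (4.57 ± 0.175 FPKM), Egr3 (1.29 ± 0.353), Nr4a3 (0.253 ± 0.0186) and Nr4a2 (0.118 ± 0.00335) followed without overlap between neighbours. In Ag cells the order was Nab2 (16.4 ± 3.89 FPKM, n = 5), Egr1 (14.7 ± 2.04), Egr2 (10.7 ± 1.24), Nr4a1 (6.56 ± 0.868), Nr4a2 (4.00 ± 0.415), Egr3 (1.27 ± 0.419) and Nr4a3 (0.405 ± 0.222), where the libraries of Nab2 and Egr1 and those of Egr1 and Egr2 overlapped. In Ag+Costim cells Nab2 (10.7 ± 1.47 FPKM, n = 5) stood above Nr4a1 (4.13 ± 0.409) and Egr1 (4.10 ± 0.291), which overlapped. Nr4a2 (2.19 ± 0.807 FPKM) and Egr2 (1.53 ± 0.650) came next and overlapped, as did Nr4a3 (0.368 ± 0.157) and Egr3 (0.182 ± 0.138), the lowest.

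**Figure D1:**
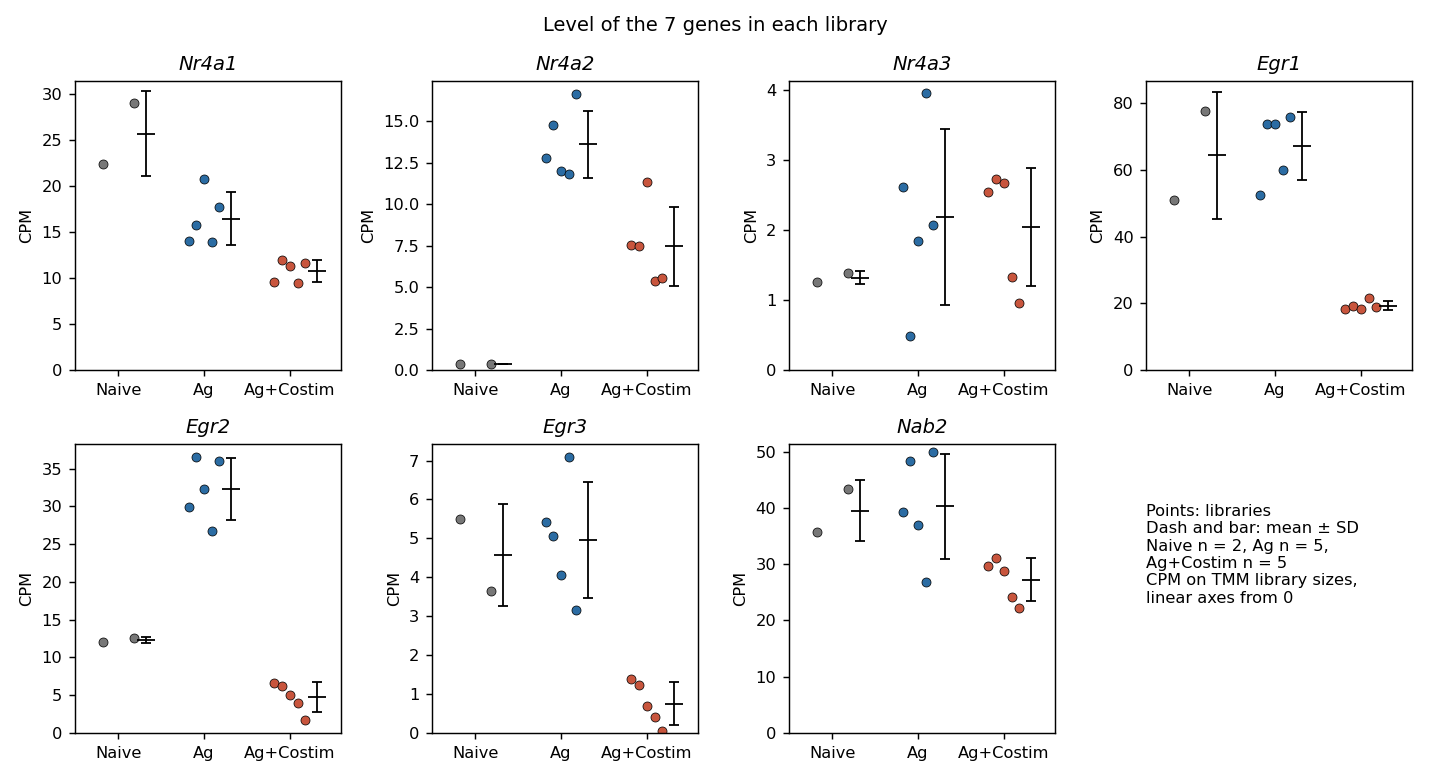
CPM of each gene (vertical axis, linear from 0) in each library of Naive (n = 2), Ag (n = 5) and Ag+Costim (n = 5), with the mean ± SD beside the points. Egr1, Egr2 and Egr3 fall below every Ag library in all 5 Ag+Costim libraries, Nr4a2 is near 0 in Naive alone, and Nr4a3 overlaps between the groups.

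The comparison of Ag+Costim with Ag addressed what costimulation added to antigen. In it 6 of the 7 genes fell and 0 rose. The steepest falls were those of Egr2 (to 0.146 of the Ag level), Egr3 (to 0.153) and Egr1 (to 0.287), whereas Nr4a2 (0.549), Nr4a1 (0.657) and Nab2 (0.676) fell less and Nr4a3 did not pass the test. Among all 18817 genes tested, 26.5% were called lower and 26.6% higher at an adjusted p below 0.05 in this comparison (edgeR's quasi-likelihood test with Benjamini-Hochberg adjustment, as for every adjusted p below). For 5 of the genes the libraries of the groups did not overlap, all lower, against 18.5% of all genes tested. The median log2 fold change was -0.87 over the 7 genes and -0.05 over all genes tested. Under upper-quartile scaling the median of all genes moved to -0.25 and the calls over all genes went from 5006 higher and 4979 lower to 4056 and 6338, and the same 6 genes were called lower under all 21 alternatives tried.

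Nr4a1, whose product NUR77 is the usual reporter of receptor signal strength, was measured in Ag 1 to 5 at 14.0, 15.7, 20.8, 13.9 and 17.7 CPM. In Ag+Costim 1 to 5 it stood at 9.58, 11.99, 11.3, 9.42 and 11.7 CPM. Every Ag+Costim library was below every Ag library. The log2 fold change was -0.61 (SE 0.14, adjusted p = 0.00236).

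Nr4a2, which encodes NURR1, stood at 12.8, 14.8, 12.02, 11.8 and 16.6 CPM in Ag 1 to 5. In Ag+Costim 1 to 5 its levels were 7.57, 7.47, 11.3, 5.40 and 5.56 CPM. Ag+Costim 3 came close to the lowest Ag library, but the groups did not overlap. The log2 fold change was -0.87 (SE 0.20, adjusted p = 0.00212).

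Nr4a3, which encodes NOR1, was the lowest of the NR4A genes in both groups and the most scattered. Its levels were 2.61, 0.492, 1.84, 3.96 and 2.07 CPM in Ag 1 to 5 and 2.54, 2.73, 2.68, 1.33 and 0.961 CPM in Ag+Costim 1 to 5. The Ag+Costim libraries all lay within the span of the Ag libraries. The log2 difference of -0.09 (SE 0.44, adjusted p = 0.883) had a 95% interval from -1.05 to 0.87, and its sign turned to 0.22 without Ag 4, 0.05 without Ag+Costim 4 and 0.09 without Ag+Costim 5.

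Egr1, the EGR gene with the most RNA, was measured at 52.7, 73.8, 73.6, 60.0 and 76.0 CPM in Ag 1 to 5. The Ag+Costim libraries were nearly alike, at 18.4, 19.3, 18.3, 21.6 and 18.8 CPM. The gap between the groups was wider than the span of either. Egr1 fell by 1.80 on the log2 scale (SE 0.13, adjusted p = 1.84e-07), the smallest p among the 7 genes.

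Egr2, which is linked to anergy and to the restraint of effector T cells, was measured at 29.9, 36.6, 32.3, 26.7 and 36.0 CPM in Ag 1 to 5. It stood at 6.62, 6.23, 5.06, 3.98 and 1.71 CPM in Ag+Costim 1 to 5. All Ag+Costim libraries were far below all Ag libraries, with Ag+Costim 5 the lowest. The log2 fold change was -2.77 (SE 0.28, adjusted p = 2.08e-06).

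Egr3, which overlaps with Egr2 in function, was present at 5.42, 5.06, 4.05, 7.08 and 3.15 CPM in Ag 1 to 5. In Ag+Costim 1 to 5 it stood at 1.38, 1.22, 0.686, 0.419 and 0.0519 CPM. The last value rests on 2 counts, which is under the floor of 3 counts (0.0779 CPM in that library). The groups did not overlap, and the log2 fold change was -2.71 (SE 0.52, adjusted p = 0.000644). On the log2(FPKM + 1) scale, which understates the change of low genes, it was -0.93.

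Nab2 was less depleted than the EGR genes its product binds. Its levels were 39.2, 48.2, 36.9, 26.9 and 50 CPM in Ag 1 to 5 and 29.7, 31.1, 28.8, 24.2 and 22.3 CPM in Ag+Costim 1 to 5. Ag 4, the shallowest library and the one with the most erythroid RNA, lay within the Ag+Costim range, so that the groups overlapped. The log2 fold change was -0.57 (SE 0.16, adjusted p = 0.00894).

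Values of other cell types and of cell state moved with this comparison. The summed B cell, erythroid and NK cell markers given above were lower in Ag+Costim, as was the CD8 T cell sum. Not every marker followed its sum. Cd22 of the B cell list was at 14.5 to 21.3 CPM in Ag and 19.2 to 34.7 in Ag+Costim, and Cd3e overlapped between the groups. In the myeloid list Itgax was at 6.78 to 24.6 CPM in Ag and 25.6 to 141 in Ag+Costim, while Tyrobp was at 10.6 to 26.9 and 4.48 to 13.4. The 5 proliferation markers summed to 1850 to 2330 CPM in Ag+Costim and 437 to 889 in Ag. The 9 markers of tissue handling and heat shock, which include immediate-early genes such as Fos and Jun, summed to 340 to 371 CPM in Ag+Costim and 351 to 440 in Ag, and their members did not move together. The heat shock genes Hspa1b (3.41 to 6.36 CPM in Ag+Costim and 0.448 to 2.26 in Ag) and Dnajb1 (133 to 186 and 97 to 142 CPM) were at higher levels in Ag+Costim, with overlap for Dnajb1, whereas Ier2 (127 to 160 and 203 to 243 CPM) and Fos (0.820 to 2.30 and 3.27 to 7.78 CPM) were at lower levels without overlap. The part of these shifts in the lower EGR and NR4A levels was not tested.

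**Figure D2:**
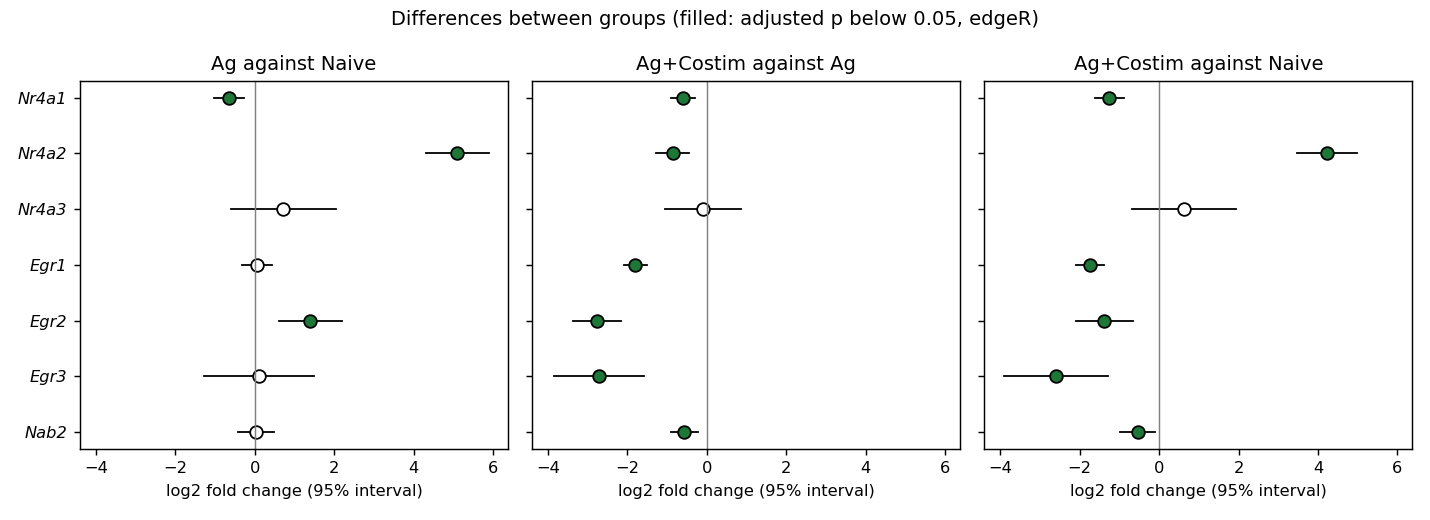
Log2 fold change of each gene (horizontal axis, with its 95% interval) in the 3 comparisons, with filled points where the adjusted p was below 0.05. Between Ag and Ag+Costim, 6 of the 7 points are filled and left of 0. Between Naive and Ag, only Nr4a2 (5.10) and Egr2 (1.40) are filled to the right and Nr4a1 (-0.64) to the left.

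The comparison of Ag with Naive addressed what antigen alone left in the cells at collection. In it 2 of the 7 genes rose, Nr4a2 and Egr2, 1 fell, Nr4a1, and 4 did not pass the test. Among all genes tested 24.2% were called higher and 22.5% lower in this comparison, which was 4559 and 4233 genes, against 3662 and 5101 with total counts and 3571 and 5624 with log2(FPKM + 1). The median log2 fold change was 0.11 over the 7 genes and 0.02 over all genes tested. The Naive group had 2 libraries, and fewer genes overall were called without either. Without Naive 1, 3362 were called higher and 3085 lower, and without Naive 2, 2906 and 2807. The effect on the Nr4a1 and Egr2 calls is given below.

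Nr4a2 was nearly absent from Naive cells, at 0.391 and 0.399 CPM, or 19 counts in each library. In Ag its lowest library held 11.8 CPM. It was 34.2-fold higher in Ag (log2 fold change 5.10, SE 0.37, adjusted p = 2.92e-07), and the log2 change was 2.16 on the log2(FPKM + 1) scale.

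Nr4a1 moved the other way, with 22.4 and 29.0 CPM in the Naive libraries, both above the highest Ag library at 20.8 CPM. The log2 fold change was -0.64 (SE 0.18, adjusted p = 0.00928). Without Naive 2 it was -0.45 and no longer passed the test (adjusted p = 0.180). The 9 handling and heat shock markers summed to 562 to 622 CPM in Naive, but Socs3 alone gave 195 to 202 CPM of this, against 14.6 to 31.1 CPM in Ag. Without Socs3, a split made after its values were seen, the sums were 361 to 427 CPM in Naive and 330 to 409 in Ag and overlapped. The part of handling in the Nr4a1 level was not tested.

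Egr2 stood at 12 and 12.6 CPM in Naive, below the lowest Ag library at 26.7 CPM, and was 2.63-fold higher in Ag (log2 fold change 1.40, SE 0.37, adjusted p = 0.00709). Without Naive 1 the log2 fold change was 1.36 (adjusted p = 0.0617), and without Naive 2 it was 1.43 (adjusted p = 0.0570).

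Egr1 was as high in Naive cells as after antigen, at 51.0 and 77.8 CPM, a span that held all 5 Ag libraries. Its log2 difference was 0.06 (95% interval -0.31 to 0.43, adjusted p = 0.795). Egr3, at 5.49 and 3.65 CPM in Naive, differed by 0.11 (95% interval -1.27 to 1.49, adjusted p = 0.905). Nab2, at 35.6 and 43.3 CPM, differed by 0.03 (95% interval -0.43 to 0.48, adjusted p = 0.925). The signs of these 3 differences turned under total-count scaling and on the FPKM scale. Nr4a3, at 1.26 and 1.39 CPM in Naive, differed by 0.72 (95% interval -0.60 to 2.04, adjusted p = 0.357).

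The comparison of Ag+Costim with Naive shares its libraries with the other comparisons. Nr4a2 rose and 5 of the 7 genes fell, while 26.9% of all genes tested were called higher and 25.4% lower. That balance depended on the scaling, from 5066 higher and 4778 lower to 4121 and 6098 with total counts and 3932 and 6528 with log2(FPKM + 1). Nr4a2 was 18.8-fold higher in Ag+Costim (log2 fold change 4.23, SE 0.35, adjusted p = 5.47e-07). Egr3 was lower by the widest margin (-2.60, SE 0.61, adjusted p = 0.00292), followed by Egr1 (-1.74, SE 0.16, adjusted p = 1.55e-06), Egr2 (-1.38, SE 0.33, adjusted p = 0.00327) and Nr4a1 (-1.25, SE 0.17, adjusted p = 5.24e-05). Under the 21 alternatives Egr3 ranged from -2.925 to -0.952 and Egr1 from -2.02 to -1.41, so their order depended on the setting. Nab2 was lower (log2 fold change -0.54, SE 0.21, adjusted p = 0.0426), a call lost under 9 of the 21 alternatives. For these 5 genes the Ag+Costim libraries were all below both Naive libraries, which was so for 34.2% of all genes tested. Nr4a3 differed by 0.63 (95% interval -0.68 to 1.94, adjusted p = 0.398). The median was -1.25 over the 7 genes and -0.02 over all genes tested.

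The make-up of each family was described from the FPKM values, with no test. Nr4a1 gave 96.9% ± 0.499 of the summed NR4A FPKM in Naive (SD, n = 2), 59.6% ± 3.66 in Ag and 62.6% ± 8.20 in Ag+Costim (n = 5 each). Nr4a2 gave 0.985% ± 0.190 in Naive, 36.6% ± 3.47 in Ag and 32% ± 6.84 in Ag+Costim. The NR4A sum itself was 12.3 ± 2.70 FPKM in Naive, 11 ± 0.886 in Ag and 6.69 ± 1.08 in Ag+Costim. Naive cells thus held NR4A transcripts almost wholly of Nr4a1, and both antigen groups held a mixture of Nr4a1 and Nr4a2.

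The EGR sum was 21.7 ± 4.58 FPKM in Naive, 26.7 ± 2.85 in Ag and 5.81 ± 0.792 in Ag+Costim. Egr1 gave 72.3% ± 6.66 of it in Naive, 55% ± 2.78 in Ag and 71.6% ± 10.8 in Ag+Costim, and Egr2 gave 21.4% ± 3.72, 40.2% ± 2.45 and 25.5% ± 8.77. The ratio of Nab2 to the EGR sum ranged from 0.781 to 0.877 in Naive, from 0.441 to 0.729 in Ag and from 1.64 to 1.96 in Ag+Costim. Nab2 RNA was therefore below the EGR sum in every Naive and Ag library and above it in every Ag+Costim library.

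**Figure D3:**
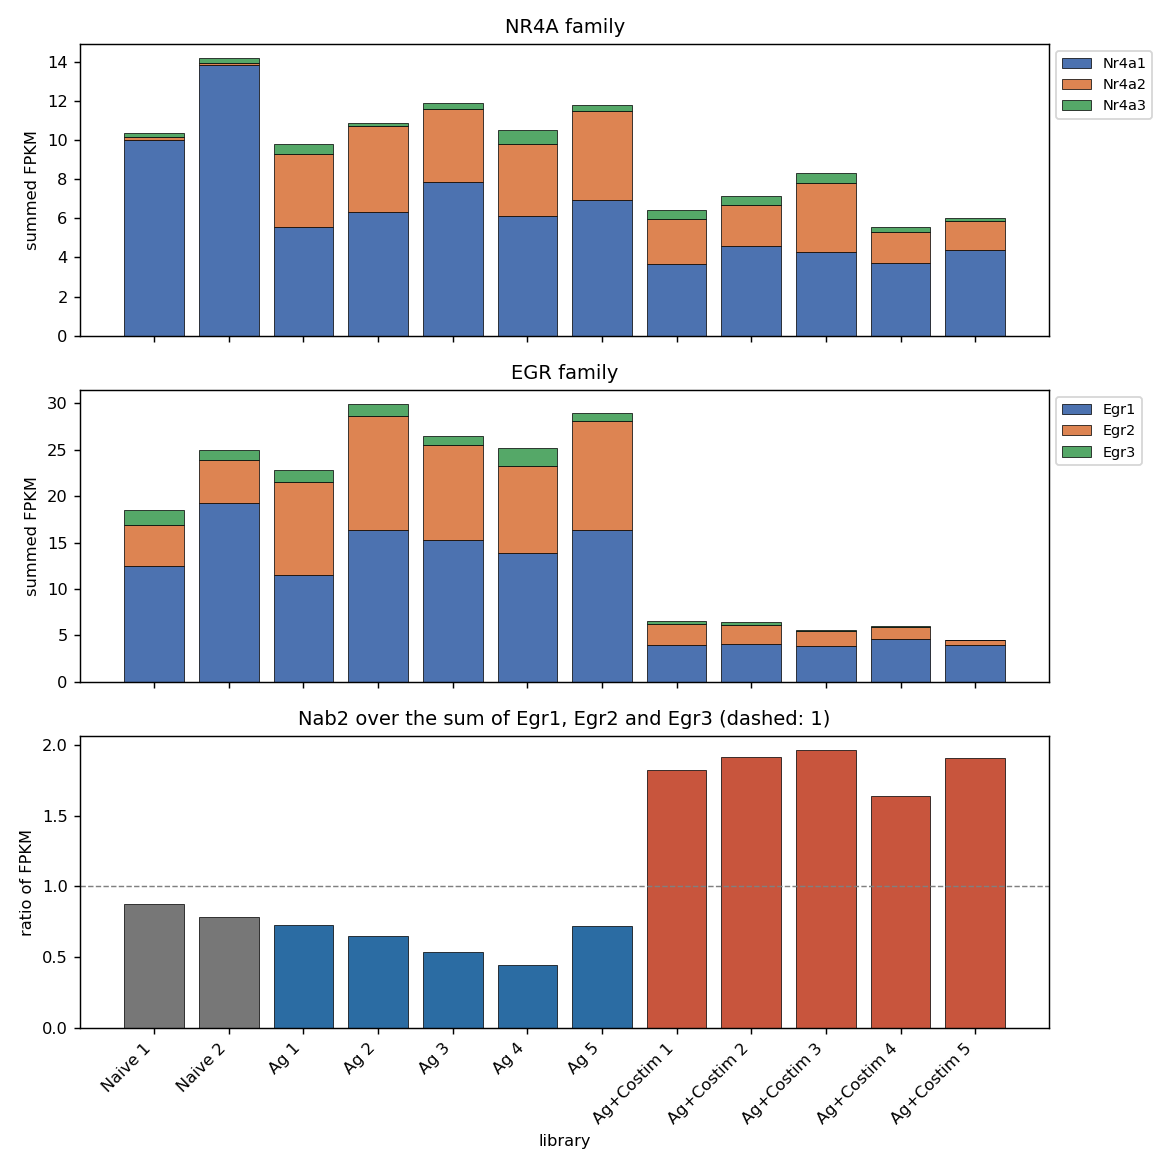
Stacked bars of FPKM for the NR4A genes (top) and the EGR genes (middle) in each of the 12 libraries, and the ratio of Nab2 FPKM to the EGR sum (bottom, dashed line at 1). Nr4a2 fills part of the bar in the Ag and Ag+Costim libraries, the EGR bars are short in Ag+Costim, and the ratio is above 1 in the 5 Ag+Costim libraries alone.

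Nr4a1 lies at chr15:101254269-101274795 on the plus strand, Nr4a2 at chr2:57106830-57124003 on the minus strand and Nr4a3 at chr4:48045153-48086447 on the plus strand (mm10). Egr1 lies at chr18:34859823-34864984, Egr2 at chr10:67535475-67542188 and Egr3 at chr14:70077203-70082614, each on the plus strand. Nab2 lies at chr10:127660918-127668568 on the minus strand and is overlapped on the other strand by Stat6, Gm16229 and Nemp1. Whether the counting used strand is not given in the sources used here, so reads of the overlapped stretches cannot be told apart. The Nab2 levels above and the ratio of Nab2 to the EGR sum may therefore include reads of these overlapping genes.

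Transcript make-up was examined because the annotated isoforms of these genes start at different sites. The main transcript Nr4a1-201 held 96.8% ± 5.14 of Nr4a1 counts in Ag and 64.9% ± 36.9 in Ag+Costim, where single libraries ranged from 14.9 to 99.8%. Nr4a2-201 held 55.6% ± 32.8 in Ag and 60.5% ± 22.7 in Ag+Costim, and all 19 counts of each Naive library. Egr2-201 held 94.2% ± 4.68 in Ag and 81.2% ± 27.9 in Ag+Costim, and Nab2-201 held 57.2% ± 12.7 and 53.0% ± 6.81. Egr3-202, annotated as a retained-intron transcript of 1 exon, held 27.9% ± 1.25 of Egr3 counts in Naive, 82.2% ± 37.6 in Ag and 100% in every Ag+Costim library. The 100% rests on only 58, 55, 32, 18 and 2 counts in Ag+Costim 1 to 5, assigned by StringTie. Differences from Naive were not tested. The differences between Ag+Costim and Ag did not pass the test for any of the 5 genes (two-sided exact permutation tests, adjusted p from 0.704 to 0.794 over 5 genes, n = 5 against 5). That does not show that the shares were alike. Nr4a1-201 was at 42.3, 67.7 and 14.9% in Ag+Costim 1, 4 and 5, below the lowest Ag library at 87.9%, and at 99.8% in Ag+Costim 2 and 3.

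Splicing was deposited as Psi, an inclusion fraction for each stretch of a gene (node), with 1 value per group, so that its differences have no replicate check. It differed by more than 0.1 between Ag and Ag+Costim at 2 of 6 nodes in Egr1, 1 of 5 in Egr2, 1 of 10 in Nr4a2, 0 of 5 in Nr4a1 and 0 of 9 in Nab2, and at 7.39% of all 115403 nodes. Nodes of 1 gene share its reads, and no node was found under the symbols Nr4a3 and Egr3. The Egr2 node is a retained intron of 100 bases at chr10:67538181-67538280 (0.939 in Ag and 0.772 in Ag+Costim). The Nr4a2 node is an alternative first exon at chr2:57114718-57115038 (0.648 in Ag and 0.786 in Ag+Costim). Both Egr1 nodes are alternative transcript ends, of which the more used was at 0.624 in Ag and 0.733 in Ag+Costim.

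Of the receptor-signal and immediate-early genes other than the 7, 35 of 36 were tested, and 19 fell and 8 rose from Ag to Ag+Costim, with a median log2 fold change of -0.61. Over all genes tested, 26.6% were called higher and 26.5% lower in this comparison. For this list and those below, the shares were 24.2% and 22.5% in Ag against Naive, and 26.9% and 25.4% in Ag+Costim against Naive. List counts near these shares do not set a list apart from all genes. The largest falls were those of Spry1 (-3.98, SE 0.42, adjusted p = 5.68e-06) and Dusp2 (-2.74, SE 0.27, adjusted p = 1.73e-06), an inhibitor of receptor signalling and a nuclear MAP kinase phosphatase. The largest rises were those of Dusp4 (3.34, SE 0.41, adjusted p = 1.32e-05), a related phosphatase, and Irf4 (1.79, SE 0.25, adjusted p = 4.85e-05), a transcription factor induced in proportion to receptor signal. Cd69, an early activation marker, fell (log2 fold change -1.18, SE 0.16, adjusted p = 3.66e-05). The genes therefore did not move as a block, and phosphatases of the same family were found on both sides.

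In Ag against Naive, 10 genes of this list rose and 7 fell, with a median of 0.02. Spry1 and Il2, the gene of interleukin-2, were at 0 counts in both Naive libraries and were at least 372-fold and at least 88.0-fold higher in Ag, taking 3 counts per library as the floor. Spred2 (-2.38, adjusted p = 8.33e-06) and Ier3 (-1.80, adjusted p = 9.08e-06) had the largest falls, and Cd69 fell as well (-1.22, adjusted p = 0.000250). Against Naive, 9 rose in Ag+Costim and 15 fell, with a median of -0.40, and the extremes were Il2 and Spry1 (at least 57.8-fold and 23.5-fold higher) and Cd69 (-2.39, adjusted p = 4.79e-07) and Fos (-2.17, adjusted p = 0.000361).

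**Figure D4:**
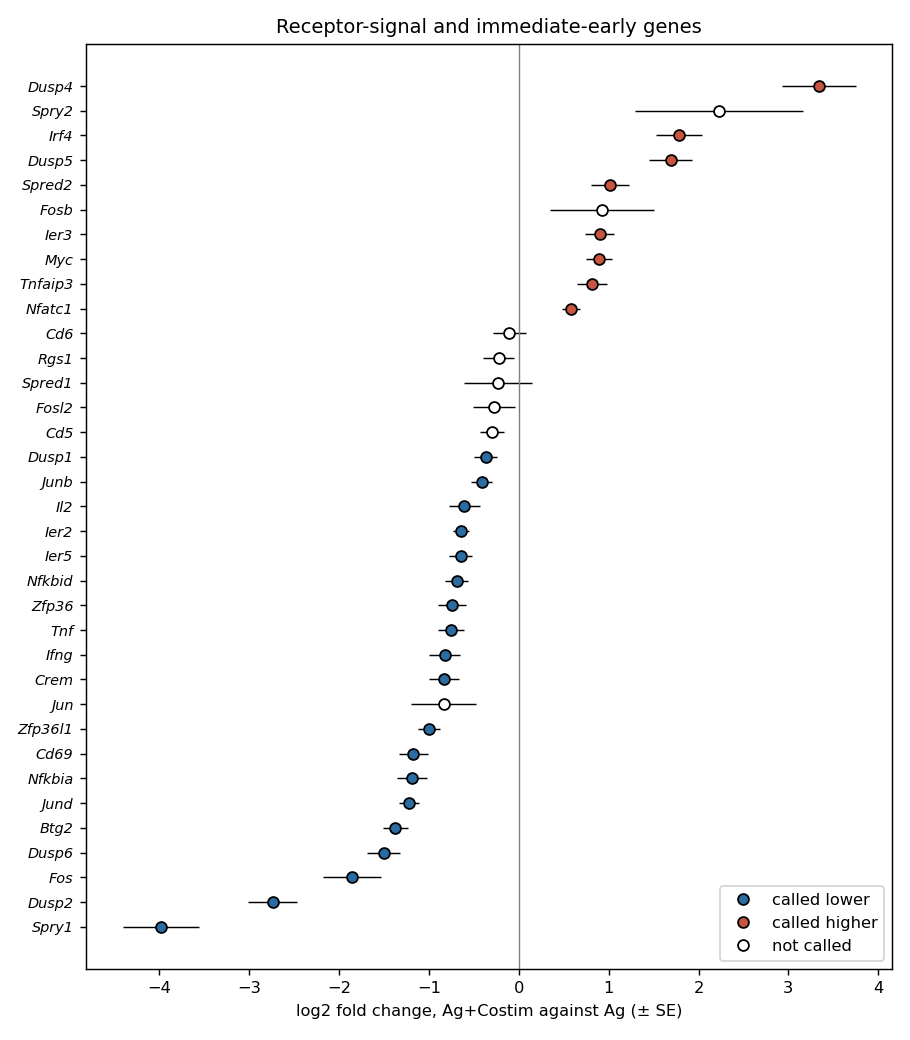
Difference of Ag+Costim from Ag on the log2 scale (horizontal axis, ± SE) of the 35 tested receptor-signal and immediate-early genes, ordered by value and coloured by whether the adjusted p was below 0.05. The 19 called lower range down to Spry1 (-3.98) and the 8 called higher reach Dusp4 (3.34).

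Of 18 EGR partners, relatives and upstream factors, 6 rose and 4 fell from Ag to Ag+Costim, with a median of 0.18. Over all genes tested 26.6% rose and 26.5% fell, so these counts are near the shares of all genes. Mapk3, which encodes the kinase ERK1 (1.74, SE 0.12, adjusted p = 7.42e-08), rose most, and Elk3 (-1.24, SE 0.16, adjusted p = 2.08e-05) and Elk4 (-0.81, SE 0.15, adjusted p = 0.000364) fell most. Nab1, the other NAB corepressor gene, was at 65.2 CPM in Ag+Costim, 59.3 in Ag and 30.9 in Naive. It rose from Naive to Ag (0.94, SE 0.19, adjusted p = 0.00125) and to Ag+Costim (1.08, SE 0.19, adjusted p = 0.000399), and its difference between the antigen groups was 0.14 (adjusted p = 0.431). Egr4, the remaining EGR gene, was at 0 in both Naive libraries, 0.818 CPM in Ag and 0.149 CPM in Ag+Costim, and its difference between the antigen groups did not pass the test (adjusted p = 0.105).

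In Ag against Naive 6 of these genes rose and 7 fell, with a median of -0.19. Hras (1.27, adjusted p = 0.00176) rose beside Egr4 (adjusted p = 0.0297), while Rasgrp1 (-1.87, adjusted p = 6.74e-07) and Braf (-1.62, adjusted p = 3.89e-05) fell most. In Ag+Costim against Naive 7 rose and 4 fell, with a median of 0.20. Nab1 and Srf (0.97, adjusted p = 0.00754), the gene of serum response factor, rose most, and Rasgrp1 (-1.69, adjusted p = 9.71e-07) and Sos1 (-1.56, adjusted p = 0.000123) fell most.

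Of 19 NR4A partners and upstream factors, 12 rose and 2 fell from Ag to Ag+Costim, with a median of 0.67, where 26.6% and 26.5% of all genes tested did. Hdac5 (1.74, SE 0.14, adjusted p = 3.04e-07) and Hdac7 (1.15, SE 0.11, adjusted p = 1.24e-06), class IIa deacetylases that repress MEF2 targets, rose most. Mef2c (-0.86, SE 0.32, adjusted p = 0.0354), which B cells also express, and Crtc3 (-0.38, SE 0.15, adjusted p = 0.0434), a CREB coactivator, fell. Between Naive and Ag the list went the other way, with 13 lower, 1 higher and a median of -0.71. Hdac5 (-2.67, adjusted p = 9.97e-08) and Crtc3 (-1.69, adjusted p = 7.73e-06) fell most, and Mef2c rose (3.79, adjusted p = 7.76e-05). In Ag+Costim against Naive 3 rose and 6 fell, with a median of -0.10, and Mef2c (2.93, adjusted p = 0.000367) and Ppp3r1 (0.51, adjusted p = 0.00369) rose most and Crtc3 (-2.07, adjusted p = 8.27e-07) and Hdac4 (-1.82, adjusted p = 3.96e-06) fell most.

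Of 21 genes known as EGR2 and EGR3 targets, 10 rose and 7 fell from Ag to Ag+Costim, with a median of 0.34. The shares over all genes tested were 26.6% and 26.5%. Nrgn (-4.32, SE 0.48, adjusted p = 8.79e-06) and Nrn1 (-3.42, SE 0.84, adjusted p = 0.00562), the genes of neurogranin and neuritin, fell most. Sema7a (5.18, SE 0.91, adjusted p = 0.000371), which encodes a semaphorin, and Cdkn1a (2.15, SE 0.46, adjusted p = 0.00142), which encodes the cell cycle inhibitor p21, rose most. From Naive to Ag 11 rose and 5 fell, with a median of 1.88, and Nrgn (8.51, adjusted p = 1.64e-05) and Nrn1 (8.08, adjusted p = 0.00288) rose most, from 0.393 and 0.405 CPM in Naive. Socs3 (-3.30, adjusted p = 3.65e-07) and Itch (-1.34, adjusted p = 6.54e-05) fell most. From Naive to Ag+Costim 12 rose and 6 fell, with a median of 1.37. Sema7a, at 0 in both Naive libraries, was at least 81.4-fold higher, Ccl1 was at 0 in Naive and 1.13 CPM in Ag+Costim (adjusted p = 0.0203), and Socs3 (-3.10, adjusted p = 3.11e-07) and Cdkn1b (-1.63, adjusted p = 3.38e-05) fell most.

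Of 18 NR4A-linked genes of dysfunctional T cells, 7 rose and 7 fell from Ag to Ag+Costim, with a median of 0.20. The shares over all genes tested were 26.6% and 26.5%. Havcr2, which encodes the inhibitory receptor TIM-3 (4.14, SE 0.24, adjusted p = 2.77e-08), and Irf4 rose most, whereas Ikzf2, which encodes HELIOS (-2.67, SE 0.19, adjusted p = 1.29e-07), and Maf (-1.88, SE 0.42, adjusted p = 0.00195) fell most. From Naive to Ag 12 rose and 1 fell, with a median of 1.51, led by Ctla4 (7.14, adjusted p = 7.38e-08) and Lag3 (6.08, adjusted p = 4.53e-06), genes of inhibitory receptors, and Bach2 (-1.48, adjusted p = 0.00117) was the one that fell. From Naive to Ag+Costim 12 rose and 4 fell, with a median of 2.13. Lag3 (7.67, adjusted p = 5.63e-07) and Havcr2 (7.63, adjusted p = 3.15e-08) rose most, and Ikzf2 (-3.01, adjusted p = 1.81e-07) and Bach2 (-2.90, adjusted p = 3.32e-06) fell most.

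The genes with the nearest profile to each of the 7 were found by the root mean square difference of centred log2 CPM over the 12 libraries, among genes with a mean log2 CPM above 3. Nearest to Nr4a1 were Cytip (0.152) and Ktn1 (0.182), where the median over all genes compared was 0.647. Cytip stood at 446 CPM in Naive, 297 in Ag and 196 in Ag+Costim, the same falling order as Nr4a1. Nearest to Nr4a2 were Ctse (0.377) and Rbm45 (0.394, median 1.76), and nearest to Nr4a3 were 8030462N17Rik (0.485) and Trps1 (0.613, median 0.882).

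Nearest to Egr1 were Ift80 (0.197) and Inpp4b (0.206, median 0.999). Nearest to Egr2 were Tnfsf8 (0.413), which encodes the CD30 ligand, and Tbc1d4 (0.445, median 1.47). Tnfsf8 stood at 32 CPM in Naive, 68.1 in Ag and 12.8 in Ag+Costim, as Egr2 was highest in Ag and lowest in Ag+Costim. Nearest to Egr3 was Egr2 itself (0.781), then St6gal1 (0.808, median 1.85). Nearest to Nab2 were Trp53rka (0.146) and Fam118a (0.159, median 0.551). The libraries fall in 3 groups, so likeness here is mainly that of the group levels, except for Nr4a3. Its nearest gene 8030462N17Rik was at 8.38, 8.07 and 9.05 CPM in Naive, Ag and Ag+Costim, where Nr4a3 was at 1.32, 2.19 and 2.05.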

How the data were processed

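RNA-seq of 12 libraries was analysed (Naive 2, Ag 5, Ag+Costim 5), grouped by the sample labels. The authors aligned reads to mm10 with HISAT2 2.1.0 and quantified them with StringTie 2.1.0, and their notes also name SAMtools 1.9, R 4.0.5 and DESeq2 1.30.1. The authors deposited estimated counts per gene, which StringTie derives from coverage, so that a count is not 1 read and counting floors cover counting error only. FPKM values were computed by the authors per transcript, with scaling for length and depth, and were summed here per gene. The authors deposited Psi, a fraction, from Whippet once per group; the columns of Psi differences and probabilities hold the authors' own comparison and were not used. Of 81881 entries, 55536 matched GENCODE vM21 and 26345 were left out (0.0508 to 0.121% of counts).

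Counts were tested with edgeR 4.0.16 (R 4.3.3) by the quasi-likelihood test with TMM scaling over all 12 libraries. The p-values were Benjamini-Hochberg adjusted over 18817 genes at a threshold of 0.05. Replicates are separate libraries, taken as the labels give them. The fits were tested on simulated data. Transcript shares were tested by exact permutation (smallest possible p 0.00794). Alternatives used DESeq2 1.42.0, limma 3.58.1 on log2 FPKM with pseudocounts of 1 and 0.1, other scalings, no filter, a replicate block and each library left out. Genes named beside the 7 were, in each list and comparison, the 2 largest called rises and falls, with Nab1, Egr4 and Cd69 always, and the 2 nearest profiles per gene. The values of 1 gene that this rule names are not reported here. The 7 genes, the lists and this rule were chosen with earlier results of these data known. Promoters were matched for 5 of the 7 genes, all but Egr1 and Egr3.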

Additional observations from a re-analysis of the deposited data

Results flagged for a closer look

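Of 23 groups of values checked for a library far from the others, 2 were found. Chance alone gives about 1 in 20 where values are normally distributed. Both groups found are percentages mostly close to 100, for which that rate does not hold. In Ag, the share of Egr3 counts assigned to Egr3-202 was 15.0% in Ag 2 and 96.0 to 100% in the other Ag libraries. In the same library the share of Nr4a1 counts assigned to Nr4a1-201 was 87.9%, against 96.9 to 99.8% in the others.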

How the results depend on the processing

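From Ag to Ag+Costim 144 of 147 values of the 7 genes kept their direction and side of the threshold under 21 alternatives. The 3 exceptions were Nr4a3, which ranged from -0.35 to 0.22 with 1 library left out. Of 147 values from Naive to Ag, 129 did so, 3 lost the call and 15 turned sign. With total counts, FPKM + 1 and FPKM + 0.1, Egr1 was -0.119, -0.083 and -0.087, Egr3 -0.053, -0.021 and -0.046, and Nab2 -0.15, -0.14 and -0.15. With 1 library left out, Egr1 ranged from -0.21 to 0.40, Egr3 from -0.16 to 0.43, Nab2 from -0.11 to 0.17, Egr2 from 1.35 to 1.46 and Nr4a1 from -0.82 to -0.45, and the genes called higher numbered 1 to 2 and lower 0 to 1. Of 147 from Naive to Ag+Costim, 138 did so, and the 9 that lost the call were all Nab2 (-0.68 to -0.40 with 1 library left out, and -0.52 with no filter). The share difference of Nr4a2-201 ranged from -3.76 to 14.7 points with 1 library left out, turning sign without Ag 2, Ag 3 or Ag+Costim 5, and that of Nab2-201 from -7.58 to 0.576, turning sign without Ag 4. The cause was not tested.

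Ag and Ag+Costim libraries of the same number correlated at 0.016 to 0.095, and 6 of 10 correlated best with their own number. The labels do not say that the numbers pair libraries, so pairing was left out of the main test and tried as an alternative. What lies behind these correlations was not tested. With the replicate block 4993 genes were called higher and 4743 lower from Ag to Ag+Costim, against 5006 and 4979 without it, and Nab2 against Naive was -0.38 (adjusted p = 0.144). The low counts of Egr3 in Ag+Costim and the 2 Naive libraries limit precision.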
